A study of Mus musculus with 39 samples.

Results

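Alveolar macrophages that carry little Siglec F, sorted from the fibrotic lungs of old mice, were compared with monocytes sorted from the uninjured lungs of old mice. The libraries were chosen by their sample labels: 5 of old macrophages and 5 of old monocytes, all from the saline arm, 10 of the 39 RNA-seq libraries in the series. The series sorted both kinds of cell from young and old C57BL/6J mice given ISRIB, an inhibitor of the integrated stress response, or the saline vehicle by daily intraperitoneal injection. The macrophage donors had received bleomycin, an agent that damages lung tissue and is followed by scarring; their injections began on day 7 and the cells were taken on day 21. The monocyte donors are labelled naive, and no day is stated for them. Old mice are labelled as over 18 months of age, and the series text gives 18 to 24 months. The young mice, used only for one comparison at the end, are 3 to 5 months old in that text, while their sample labels give a lower age. No label names the animal behind a library, so it is not known whether the 5 libraries of a group are 5 animals, and the p-values measure the spread between these libraries. Cell type and injury cannot be told apart here, because every macrophage library came from a bleomycin lung and every monocyte library from a naive one.

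Monocytes circulate in the blood, enter the lung and, after injury, can settle in the airspaces and mature into alveolar macrophages. Cells on that path are known to shed the receptors used for leaving the blood and to acquire lysosomes, scavenger receptors, lipid handling and the genes of resident alveolar macrophages. Recruited macrophages of this kind have been linked to lung fibrosis through secreted matrix proteins, proteases and growth factors. Siglec F marks mature alveolar macrophages and is low on recent arrivals.

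Expression is given as CPM, counts per 1000000 of a library's total after TMM scaling. CPM are not divided by gene length, so they serve to compare libraries, and a ranking of genes by CPM or share of counts is of counts and not of transcript numbers. A gene was called when its Benjamini-Hochberg adjusted p in edgeR's quasi-likelihood test was under 0.05, and log2 fold changes are macrophage minus monocyte with their standard error (SE). The 10 libraries held 6996727 to 11398384 counts. In bulk RNA, fewer cells of a type and less RNA per cell cannot be told apart.

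The sort markers separated the libraries along their labels. Ly6c2, a surface protein of classical monocytes, was at 639.6, 578, 403, 438 and 432 CPM in monocyte libraries 1 to 5 and at 1.89, 3.65, 1.23, 7.58 and 1.90 CPM in macrophage libraries 1 to 5. Mertk, a receptor for dying cells that is used to tell macrophages from monocytes, was at 420.0, 414, 483, 439 and 621 CPM in macrophages and at 1.40 to 7.11 CPM in monocytes. Neither gene overlapped between the groups. Siglecf was at 57.0, 85.8, 120.3, 55.8 and 106 CPM in macrophages and at most 1.23 CPM in monocytes. Of 18 genes of mature alveolar macrophages, 17 were higher in macrophages, and their summed CPM was 9950.2 to 14908 in macrophages and 769.7 to 1453 in monocytes. Of 7 monocyte surface genes, 6 were lower in macrophages and Cd14 did not pass the test. Fcgr1, which encodes the Fc receptor CD64 and is used to tell macrophages, did not pass it either, at 145 ± 29.8 and 147 ± 48.4 CPM (SD, n = 5 each).

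Markers of other cells were summed by list. Over all 13587 genes tested, 29.7% were called higher in macrophages (10.1% at least 4-fold) and 27.3% lower (6.72% at least 4-fold). The dendritic cell list summed to 32.9 to 49.4 CPM in macrophages and 87.5 to 156 CPM in monocytes. Of its 12 genes, 5 were lower and 3 higher. The interstitial macrophage list summed to 1989.7 to 3620.3 CPM and 2756 to 3877 CPM. Of its 13 genes, 8 were higher, each at least 4-fold, and 4 were lower. The fibroblast list summed to 7.46 to 17.3 CPM in macrophages and 9.46 to 16.6 CPM in monocytes, but the genes behind the sums differed: 4 of 7 tested were at least 4-fold higher in macrophages, among them Col1a1 (1.12 and 0.0709 CPM) and Col3a1 (1.40 and 0.0637 CPM), while Acta2 was lower (2.20 and 6.87 CPM). The higher calls rest on few counts, and 2 were made without macrophage library 2 and 0 when only the 10 libraries compared were fitted. The eosinophil list summed to 284 to 479.7 CPM in macrophages and 12.8 to 32.3 CPM in monocytes. Of 4 genes tested, 3 were at least 4-fold higher in macrophages: Siglecf, Cd24a (241 and 21.7 CPM) and Ear6 (3.50 and 0 CPM). The eosinophil peroxidase gene Epx had no count in either group. Among 14 B cell genes the sum was 32.8 to 439.6 CPM in macrophages, highest in library 5, and 142 to 299.8 CPM in monocytes. The T and NK cell list summed to 68.7 to 134 CPM and 34 to 162 CPM, with 8 of 14 genes tested lower in macrophages and 2 higher. The higher ones were Il7r (73.5 and 21.1 CPM), the largest part of the macrophage sum, and Cd4 (7.61 and 2.45 CPM). Cd3e averaged 1.92 and 8.41 CPM. The neutrophil list summed to 90.2 to 144 CPM and 459.7 to 591 CPM, mostly from Csf3r and Mmp8. Of 10 genes tested, 4 were lower in macrophages and 3 were at least 4-fold higher. S100a8 averaged 33.4 CPM in macrophages and 5.23 CPM in monocytes, and Cxcr2 averaged 7.03 and 0.544 CPM. The means of other members lay the other way: S100a9 at 1.92 and 2.79 CPM, Lcn2 at 1.09 and 10.8 CPM, and Ngp at 0 and 2.09 CPM. The granule genes Elane and Mpo, not tested, had no count in macrophages and only 18 and 21 counts in monocytes. Epithelial transcripts went in both directions. All 4 airway epithelial genes tested were at least 4-fold higher, among them the secretoglobin Scgb1a1 (5.51 and 0.771 CPM) and the junction genes Epcam (12.0 and 0.411 CPM) and Cdh1 (37.9 and 2.29 CPM), both also in the alveolar list. The alveolar epithelial list summed to 128 to 164 CPM in macrophages and 439 to 489 CPM in monocytes. Of 9 alveolar epithelial genes tested, 5 were higher (3 without monocyte library 3 or 5, or with only the 10 libraries fitted) and 3 lower. The surfactant transcripts Sftpc and Sftpb averaged 6.60 and 1.24 CPM in macrophages and 0.129 and 0.116 CPM in monocytes. The lower genes were Napsa (58.6 and 354 CPM), Hopx (23.5 and 92.1 CPM) and Ager (3.21 and 7.23 CPM). Of 7 endothelial genes tested, 2 were higher (28.6%, near the share over all genes) and 1 was lower. The higher ones were Vwf (197 and 4.58 CPM) and Calcrl (39.6 and 14 CPM). Without monocyte library 1 or with limma voom, 4 genes were higher. Cdh5, Kdr and Cldn5 averaged at most 3.90 CPM and were not called. The part of these cells in the results below was not tested.

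Most measured genes differed between the cells. Of 13587 genes tested, 4034 were called higher in macrophages (29.7%) and 3705 lower (27.3%). At least 4-fold differences were called for 1373 genes higher (10.1%) and 913 lower (6.72%). The 5 macrophage and 5 monocyte libraries did not overlap in CPM for 5858 genes (43.1%). These shares are the background against which every count of list members, above and below, has to be read. The median log2 fold change over all tested genes was 0.00; with library totals in place of TMM scaling it was -0.133, and the calls were then split as 3449 higher and 4348 lower. The number of genes detected did not differ beyond the spread between libraries: thinned to the smallest library, 15121 ± 579.5 genes had a count in macrophages and 15326 ± 357 in monocytes (SD, n = 5 each; two-sided exact permutation test, p = 0.524). The counts were less evenly spread in macrophages, where the 10 most abundant genes took 13.8 ± 1.14% of a library against 7.25 ± 0.452% in monocytes (SD, n = 5 each). That share did not overlap between the groups, and its exact permutation p of 0.00794 (adjusted 0.0159) is the smallest this design allows.

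**Figure D1:**
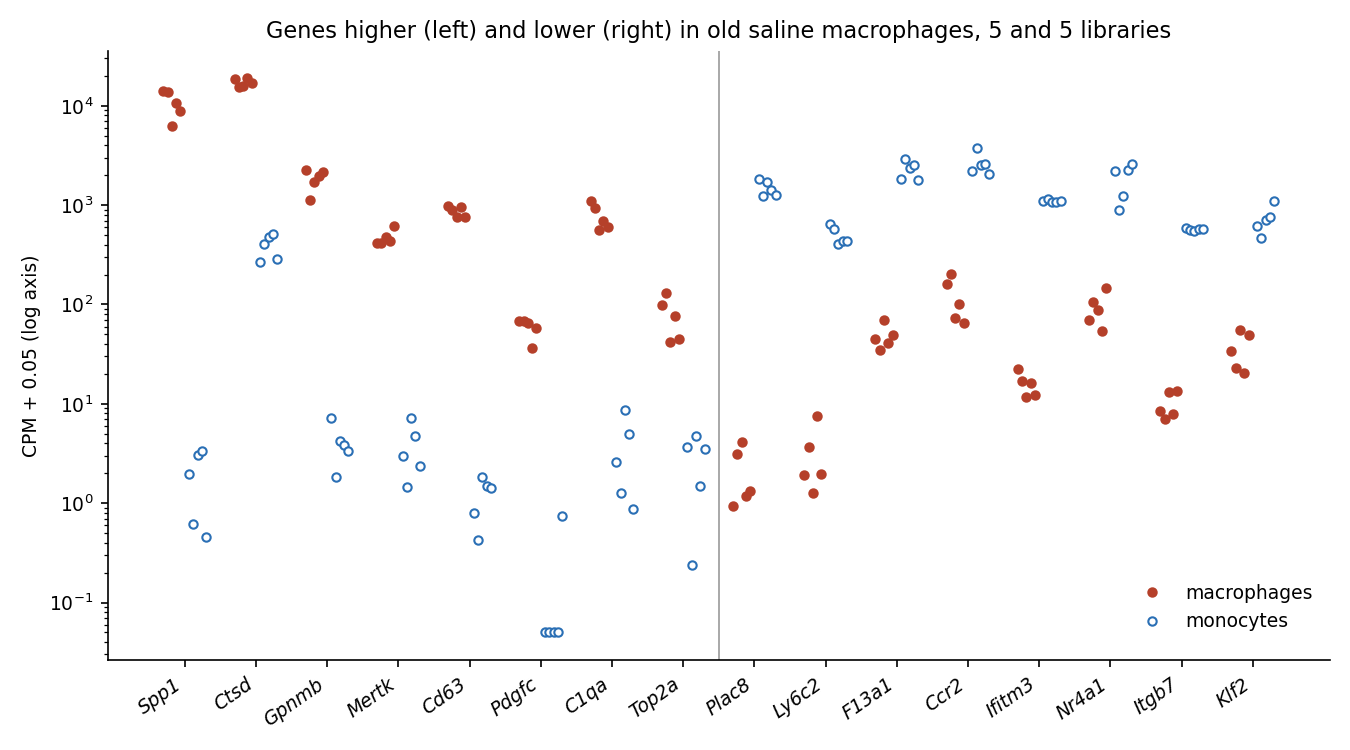
CPM of 8 genes higher and 8 genes lower in old saline macrophages, on a log axis with 0.05 added, for the 5 macrophage libraries (filled circles) and the 5 monocyte libraries (open circles). The groups of points do not overlap for any of the 16 genes.

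The matricellular gene with the largest gain was Spp1, which encodes osteopontin, a matrix-binding protein that acts on integrins and is a hallmark of macrophages in fibrotic lung. Spp1 (ENSMUSG00000029304; GRCm38 chromosome 5, 104435118 to 104441050) was at 14063, 13837, 6301, 10786 and 8817 CPM in macrophage libraries 1 to 5 and at 1.91, 0.561, 3.00, 3.32 and 0.412 CPM in monocyte libraries 1 to 5. It was nearly silent in every monocyte library and among the genes with most counts in every macrophage library, with a log2 fold change of 12.45 ± 0.46 (SE; edgeR adjusted p = 5.16e-24). Fn1, the matrix protein fibronectin, was by contrast abundant on both sides, at 6915 to 11049 CPM in macrophages and 6433 to 9669 CPM in monocytes (log2 fold change 0.21 ± 0.19, adjusted p = 0.356). The ranges overlapped. Other members were lower in macrophages. Thbs1 (thrombospondin 1, an activator of latent TGF-beta) was at 1007 to 4152 CPM in monocytes and 29.8 to 165 CPM in macrophages (-4.30 ± 0.62), and the proteoglycan Vcan was at 208 to 1039 CPM and 1.89 to 16.6 CPM (-6.29 ± 0.74). Emilin2 and Fgl2 were lower in macrophages too, by 2.50 ± 0.14 and 2.17 ± 0.21 on the log2 scale. Plau, the plasminogen activator urokinase, averaged 85.6 ± 33.3 CPM in macrophages and 6.15 ± 3.23 CPM in monocytes (SD, n = 5 each). Of 14 matricellular genes, 7 were higher, 4 lower and 3 not called.

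Several growth factors that act on fibroblasts were higher in the macrophages, all of which came from bleomycin lungs. Pdgfc, a ligand of the PDGF alpha receptor on fibroblasts, was at 68.1, 68.0, 64.8, 36.2 and 57.6 CPM in macrophages, whereas 4 of 5 monocyte libraries had no count and the other stood at 0.686 CPM. Pdgfa, a second ligand of that receptor, averaged 28.6 ± 5.00 and 0.362 ± 0.153 CPM, and Igf1, insulin-like growth factor 1, averaged 233 ± 59.9 and 2.08 ± 3.52 CPM (SD, n = 5 each). No library of one group reached the other for any of these 3 ligands. Ereg, a ligand of the EGF receptor, was low at 2.74 to 11.5 CPM in macrophages and had no count in monocytes, at least 85.7-fold higher when the monocyte group is set to a floor of 3 counts. Tgfb1, the central profibrotic cytokine, went the other way, at 370.5 to 437 CPM in macrophages and 491 to 581 CPM in monocytes (-0.44 ± 0.10, adjusted p = 2.23e-04). Vegfa was lower as well (-2.18 ± 0.53), a call that limma voom did not make (adjusted p = 0.0644). Of 16 growth factor genes tested, 10 were higher and 2 lower, with a median log2 fold change of 2.19; a further gene, Tgfa, had no count in any of the 10 libraries.

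Matrix-degrading enzymes were gained alongside. Mmp12, the macrophage elastase, was at 1313, 629, 628, 573 and 1093 CPM in macrophages and at 0.274 to 1.06 CPM in monocytes (10.09 ± 0.53). Ctsk, the collagen-cleaving cathepsin K, was at 612 to 793 CPM and 0.170 to 2.15 CPM (9.28 ± 0.35). Mmp14, a membrane-bound collagenase, was at 163 to 729 CPM and 0.841 to 10.1 CPM (6.03 ± 0.48), and its highest library was number 4. Mmp2, a gelatinase that Mmp14 activates, stood at 37.1, 48.3, 16.3, 228 and 22.5 CPM in macrophages, so library 4 again was several times the others, and at most 0.686 CPM in monocytes. The inhibitor Timp2 was higher too (622 ± 105 and 67.6 ± 8.69 CPM). Mmp8, a collagenase stored by granulocytes and monocytes, was lower, at 21.0 to 58.8 CPM in macrophages and 101 to 245 CPM in monocytes (-2.0 ± 0.33). Of 16 matrix protease genes tested, 12 were higher and 3 lower.

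**Figure D2:**
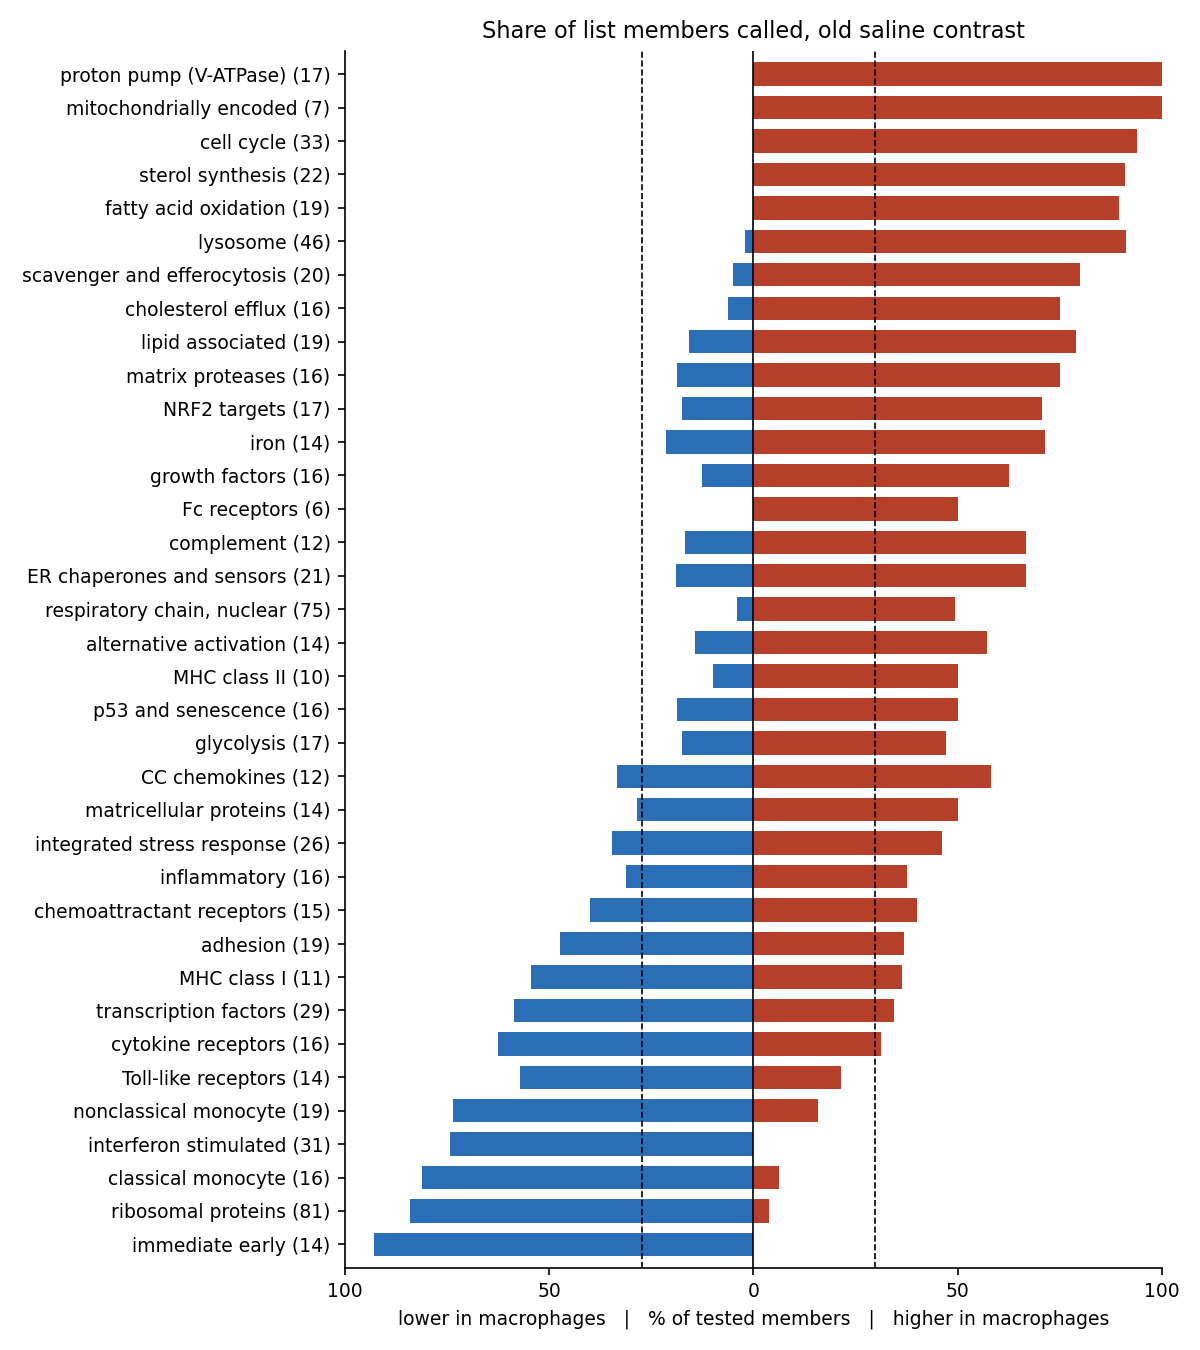
Share of tested members called higher (bars to the right) and lower (bars to the left) in old saline macrophages for 36 gene lists, with the number tested beside each name. Dashed lines mark the shares over all 13587 genes, 29.7% higher and 27.3% lower.

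The lysosome, the compartment in which macrophages digest what they take up, was higher in nearly all of its genes. Of 46 genes for lysosomal enzymes and membrane proteins, 42 were higher in macrophages and only Sgsh, a heparan sulfatase, was lower (15.1 ± 4.14 and 39.2 ± 4.70 CPM). Their median log2 fold change was 1.32, and 11 were at least 4-fold higher. Ctsd, the protease cathepsin D, was at 15587 to 18840.0 CPM in macrophages and at 268, 408, 480.0, 508 and 289 CPM in monocytes (5.45 ± 0.26, adjusted p = 8.85e-21). Cd63, a tetraspanin of lysosomal membranes, was at 756 to 980.1 CPM and 0.374 to 1.78 CPM (9.57 ± 0.37), and Pld3, a nuclease of the lysosome, at 1463 to 1995 CPM and 29 to 38.7 CPM (5.73 ± 0.13). None of these overlapped. Ctss, Ctsb and Psap, already abundant in every monocyte library, were 4.50, 3.95 and 1.65 times as high in macrophages.

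The proton pump that acidifies lysosomes was higher as a whole. All 17 subunits tested were called higher and none overlapped between the groups, yet 15 of them stayed under 4-fold, with a median log2 fold change of 0.88. Atp6v0d2, an alternative subunit of the membrane sector that macrophages and osteoclasts use, was the exception in size, at 967 to 1275 CPM in macrophages and 0 to 3.02 CPM in monocytes (10.15 ± 0.49). Its common counterpart Atp6v0d1 was at 214 to 254 CPM and 121 to 155 CPM (0.78 ± 0.08). The catalytic subunit Atp6v1a averaged 444 ± 57.9 and 244 ± 42.4 CPM (SD, n = 5 each).

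Lysosomal genes are known targets of TFEB and its relatives, which bind an E-box with the letters CACGTG, most often in the longer form TCACGTGA, so RefSeq promoters of build GRCm38.p6 were searched for both on both strands. Each promoter runs from 250 bases before to 50 after a start, and each TCACGTGA holds a CACGTG. The letters TCACGTGA, which read the same on both strands, were present in 0.974% of all 32851 promoters, in 3 of the 44 promoters of the 39 lysosomal genes in the table (6.82%) and in 3 of the 16 promoters of 12 proton pump genes (18.8%). CACGTG was present in 7.15% of all promoters, in 11 of the 44 (25%) and in 4 of the 16 (25%). The lysosomal genes with CACGTG included Sgsh, the only one of that list called lower. The promoters of 7 lysosomal and 5 pump genes were not in the table. All 3 lysosomal promoters with the longer form are shown 5′ to 3′, with capitals marking TCACGTGA. They are shown for the match, whatever the direction of their genes. All 3 genes were higher in macrophages, as were 42 of the 46 lysosomal genes. Ctsd lies on the minus strand at chr7:142387778-142388077 with the match starting 99 bases before the start, Ctsa on the plus strand at chr2:164833523-164833822 with 2 matches around the start, and Mcoln1 on the plus strand at chr8:3500269-3500568 with the match 46 bases before it.
Ctsd: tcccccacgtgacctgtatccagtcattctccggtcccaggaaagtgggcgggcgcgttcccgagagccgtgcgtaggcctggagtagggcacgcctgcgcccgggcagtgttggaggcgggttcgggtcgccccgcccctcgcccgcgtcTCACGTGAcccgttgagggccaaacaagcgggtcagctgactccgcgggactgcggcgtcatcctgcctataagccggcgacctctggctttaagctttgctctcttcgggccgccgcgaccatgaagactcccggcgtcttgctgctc
Ctsa: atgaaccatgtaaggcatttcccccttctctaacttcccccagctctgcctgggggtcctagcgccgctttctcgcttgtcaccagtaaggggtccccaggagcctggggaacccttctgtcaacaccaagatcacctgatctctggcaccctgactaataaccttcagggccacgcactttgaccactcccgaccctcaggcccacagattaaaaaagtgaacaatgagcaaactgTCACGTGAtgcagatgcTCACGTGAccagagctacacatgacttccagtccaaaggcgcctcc
Mcoln1: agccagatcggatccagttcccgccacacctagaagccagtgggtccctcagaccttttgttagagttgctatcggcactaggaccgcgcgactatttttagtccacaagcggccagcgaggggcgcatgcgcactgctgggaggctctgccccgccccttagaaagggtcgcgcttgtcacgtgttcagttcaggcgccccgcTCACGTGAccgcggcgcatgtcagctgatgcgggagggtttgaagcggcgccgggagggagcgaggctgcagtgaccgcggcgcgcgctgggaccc
Ctsa, a protective carboxypeptidase, was at 1235 to 1410.5 CPM in macrophages and 709.6 to 762 CPM in monocytes (0.84 ± 0.09), and Mcoln1, a calcium channel of the lysosomal membrane, at 87.0 to 105 CPM and 31.6 to 48.6 CPM (1.30 ± 0.11). The pump genes with TCACGTGA were Atp6v0d1, Atp6v0e and Atp6v1a. A match is a description of these letters and not of binding.

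Lipid handling was gained at several steps. Lpl, lipoprotein lipase, which frees fatty acids for uptake, was at 4749, 4879, 3218, 4461 and 3833 CPM in macrophages and at 148, 107, 70.3, 51.2 and 275 CPM in monocytes (5.02 ± 0.37). Gpnmb, a membrane glycoprotein of lipid-laden macrophages, was at 2279, 1128, 1709.9, 1966 and 2134 CPM and at 1.78 to 7.12 CPM (8.83 ± 0.41). Trem2, the lipid receptor after which such macrophages are named, averaged 447 ± 38.2 and 48.7 ± 16.7 CPM, and Cd9, a tetraspanin used to sort them, averaged 2402 ± 106 and 17.6 ± 7.99 CPM (SD, n = 5 each). No monocyte library reached a macrophage library for these 4 genes. Of 19 lipid-associated genes, 15 were higher, 12 of them at least 4-fold, and 3 were lower, among them the apolipoprotein gene Apoc2 (15.8 ± 5.75 and 58.2 ± 7.84 CPM); without macrophage library 2 or without library 4, 1 was lower.

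Cholesterol export and cholesterol synthesis were both higher. Abca1 and Abcg1, which pump cholesterol out of the cell, were 17.6 and 13 times as high in macrophages, and Abcg1 was highest in libraries 3 and 5 at 1691 and 1554 CPM against 928 to 1054 CPM in the others. Apoe, the acceptor apolipoprotein, was at 11745, 6665, 8614, 7603 and 8332 CPM in macrophages and at 824 to 1761 CPM in monocytes (2.63 ± 0.23). The liver X receptors that drive this set parted: Nr1h3 averaged 61.8 ± 12.2 and 8.60 ± 4.26 CPM, while Nr1h2 was slightly lower in macrophages (-0.30 ± 0.10, adjusted p = 0.00719). Of 16 efflux genes, 12 were higher and 1 lower. Of 22 genes of sterol synthesis and uptake, 20 were higher and none was lower, with a median log2 fold change of 1.83. Sqle, an early oxygen-dependent step, averaged 133 ± 18.1 CPM in macrophages and 17.4 ± 5.16 CPM in monocytes. The regulator Srebf2 was among the members not called (0.21 ± 0.11, adjusted p = 0.104).

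Fatty acid oxidation was higher by a smaller step. Of 19 genes, 17 were called higher and none lower, with a median log2 fold change of 0.94. Cpt1a, the entry enzyme for mitochondria, was under that median (369 ± 42.0 and 283 ± 30.6 CPM, 0.38 ± 0.11), and its call was lost with library totals (adjusted p = 0.0606) and without macrophage libraries 3 and 5 (0.0661). The respiratory chain was closer to the background: of 75 nuclear genes, 37 were higher, 3 lower (7 with library totals) and 35 not called, with a median of 0.32. All 7 mitochondrially encoded genes tested were higher, by 0.44 to 0.78 on the log2 scale, mt-Co1 averaging 5525 ± 524 and 3852 ± 633 CPM. Of the other 6, mt-Co2, mt-Co3, mt-Atp6, mt-Atp8 and mt-Nd4l are listed at 0 in all 10 libraries, and mt-Nd3 had 11 and 1 counts. For glycolysis 8 of 17 genes were higher and 3 lower (6 lower with library totals). Aldoa, Gapdh and Ldha were 2.57, 1.84 and 1.99 times as high in macrophages, whereas the hexokinase gene Hk3 was lower (-0.37 ± 0.16, adjusted p = 0.0473, and not called when any of macrophage libraries 2 to 5 or monocyte libraries 1 to 4 was left out).

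Receptors for debris and dying cells were strongly gained. Of 20 scavenger and efferocytosis genes, 16 were higher, 13 of them at least 4-fold, and only Scarb1, the receptor for high-density lipoprotein, was lower (-0.76 ± 0.12). Axl, a relative of Mertk that also recognises dying cells, was at 2042 to 2247 CPM in macrophages and 64.8 to 107 CPM in monocytes (4.71 ± 0.20). Gas6, the bridging protein that both receptors bind, averaged 24.4 ± 8.33 and 0.351 ± 0.326 CPM, and Mfge8, a bridge to integrins, averaged 625 ± 206 and 13.9 ± 2.91 CPM. Mrc1, the mannose receptor, was at 1107 to 1699 CPM and 19.9 to 69.8 CPM (4.97 ± 0.29). Lrp1 was abundant in both and did not pass the test (0.21 ± 0.13, adjusted p = 0.169). Among 6 Fc receptor genes 3 were higher and none lower (1 lower with library totals), led by Fcgrt, the receptor that recycles IgG (174 ± 45.1 and 49.7 ± 14 CPM).

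Genes of alternative activation, the response to interleukin 4, split. Chil3, a chitinase-like protein shared by alveolar macrophages and classical monocytes, was at 3992, 6592, 7749, 4091 and 7568 CPM in macrophages and 561 to 1231 CPM in monocytes (3.07 ± 0.28). Arg1, arginase 1, was at 77.9, 277, 14.7, 65.7 and 24.7 CPM in macrophages and at most 0.935 CPM in monocytes (7.68 ± 0.96). Its groups did not overlap, but the macrophage libraries spanned 14.7 to 277 CPM. Clec10a, a lectin of the same programme, was lower in macrophages (5.95 ± 2.54 and 35.4 ± 7.65 CPM). Of 14 genes, 8 were higher and 2 lower.

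Iron storage and the antioxidant response followed. Fth1 and Ftl1, the chains of ferritin, were 8.82 and 5.27 times as high in macrophages; both have near-identical copies in the genome, so their counts are uncertain. Slc40a1, the iron exporter ferroportin, averaged 15.9 ± 3.60 and 0.217 ± 0.329 CPM, and the iron transporter Slc11a1 was lower (-1.36 ± 0.20). The list counted 10 of 14 iron genes higher and 3 lower. Of 17 NRF2 genes, 12 were higher and 3 lower: Srxn1, Gclm and Txn1 were 9.85, 5.29 and 4.19 times as high in macrophages, whereas Gsr, glutathione reductase, was at 219 to 292 CPM in macrophages and 860 to 1225 CPM in monocytes (-1.98 ± 0.12).

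Among complement genes, 8 of 12 were higher and 2 lower. The 3 chains of C1q, which tags dying cells, were gained together: C1qa was at 1107, 940.4, 564, 689 and 609 CPM in macrophages and at 0.823 to 8.56 CPM in monocytes (7.73 ± 0.41), and C1qb and C1qc were higher by 5.61 ± 0.42 and 6.62 ± 0.41. C3, the central component, was lower in macrophages (-1.45 ± 0.28), although library 4 stood at 1173 CPM against 299.7 to 484 CPM in the other 4. The antigen presentation genes of MHC class II were higher where called. H2-Eb1 averaged 1084 ± 294 and 396 ± 107 CPM and Cd74, the invariant chain, 5030 ± 1350.5 and 2165 ± 439 CPM, yet their regulator Ciita was lower (65.2 ± 14 and 113 ± 36.1 CPM, -0.79 ± 0.26, adjusted p = 0.00925). Of 10 class II genes, 5 were higher, Ciita alone was lower (2 genes without macrophage library 5) and 4 were not called. Class I parted in another way: the surface chains H2-K1, H2-D1 and B2m were 1.65, 1.45 and 1.55 times as high in macrophages, while the regulator Nlrc5 and the loading genes Tap1 and Psmb9 were lower (-1.25 ± 0.21, -1.35 ± 0.20 and -0.72 ± 0.19). The counts there were 4 higher and 6 lower of 11.

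What was lost began with the monocyte's own identity genes. Plac8 (ENSMUSG00000029322; chromosome 5, 100553725 to 100572245), a small cysteine-rich protein of myeloid cells, was at 1823, 1226, 1725, 1433 and 1254 CPM in monocytes and at 0.889, 3.06, 4.06, 1.14 and 1.27 CPM in macrophages (-9.43 ± 0.49, adjusted p = 1.61e-19). F13a1, the clotting factor XIII subunit, was at 1780.4 to 2935 CPM and 35.1 to 69.3 CPM (-5.58 ± 0.27). Ifitm6, an interferon-induced membrane protein of monocytes, averaged 289 ± 31.6 and 0.469 ± 0.348 CPM. The groups lay far apart for all 3. Of 16 classical monocyte genes, 13 were lower, 11 at least 4-fold, with a median log2 fold change of -4.77, and only Chil3 was higher. Nonclassical monocyte genes were lower as well, 14 of 19, but with a median of -2.13. Nr4a1, the nuclear receptor that nonclassical monocytes depend on, was at 903 to 2592 CPM in monocytes and 54.6 to 145 CPM in macrophages (-4.31 ± 0.38). The 3 members of that list that were higher were Ear2, Fabp4 and Bcl2a1a, genes that macrophages also express, and Ear2 and Bcl2a1a have near-identical copies.

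Adhesion molecules and chemoattractant receptors were exchanged. Itgb7, an integrin beta chain, was at 582, 563, 550.5, 578 and 572 CPM in monocytes and 6.94 to 13.4 CPM in macrophages (-5.82 ± 0.29), and its partner Itga4 was lower by 2.23 ± 0.17. Itgax, the alpha chain of CD11c, was at 2035 to 2391 CPM in macrophages and 28.5 to 66.5 CPM in monocytes (5.70 ± 0.40). Of 19 adhesion genes, 7 were higher and 9 lower. Ccr2, the receptor that brings classical monocytes to inflamed tissue, was at 2208, 3773, 2516, 2602 and 2040.2 CPM in monocytes and at 162, 203, 73.7, 101 and 65.0 CPM in macrophages (-4.44 ± 0.32). S1pr5 and Ltb4r1, receptors for sphingosine phosphate and leukotriene B4, were lower by 5.89 ± 0.55 and 5.92 ± 0.33, and C3ar1 and Fpr1 were 24.5 and 18.5 times as high in macrophages. That made 6 higher and 6 lower of 15 chemoattractant receptors.

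Interferon-stimulated genes, which cells switch on against viruses, were lower or not called, and none was higher with all libraries (1 without macrophage library 3, library 5 or both). Of 31, 23 were lower, 9 of them at least 4-fold, with a median log2 fold change of -1.52. Ifitm3, which blocks viral entry, was at 1089, 1148, 1063, 1081 and 1106 CPM in monocytes and at 22.2, 17.1, 11.8, 16.2 and 12.1 CPM in macrophages (-6.11 ± 0.24, adjusted p = 2.08e-23). Irf7, the transcription factor that amplifies interferon, was at 152 to 297 CPM in monocytes and at 36.2, 45.1, 8.97, 43.8 and 13.8 CPM in macrophages (-2.99 ± 0.33), so macrophage libraries 3 and 5 were the lowest. Oasl2, Mx1, Trim30a and Parp14 were lower by 2.04 ± 0.33, 3.26 ± 0.33, 1.52 ± 0.16 and 1.60 ± 0.16. The Ifitm and Oas genes have close paralogs and their counts are uncertain.

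Immediate early genes, which answer many stimuli within minutes, were lower in 13 of 14 cases. Fos was at 3913 to 4982 CPM in monocytes and 1026 to 2080 CPM in macrophages (-1.55 ± 0.26), Dusp1 at 1979 to 3433 and 497 to 1223 CPM (-1.74 ± 0.27), and Atf3 at 373 to 1143 and 84.4 to 256 CPM (-2.21 ± 0.34). All 3 were free of overlap. Inflammatory genes were mixed, 6 higher and 5 lower of 16 tested. Il1b and the prostaglandin synthase gene Ptgs2 were lower (-1.63 ± 0.44 and -3.53 ± 0.57), whereas Il1a and the receptor antagonist Il1rn were higher (4.54 ± 0.49 and 3.24 ± 0.20). Of 12 CC chemokines, 7 were higher and 4 lower: Ccl6 was at 3691 to 5609.7 CPM in macrophages and 753 to 1235 CPM in monocytes (2.06 ± 0.16), and Ccl2, the ligand of Ccr2, was at 14.2 to 32.6 and 51.1 to 103 CPM (-1.68 ± 0.28).

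Sensors of microbes and cytokine receptors were more often lower than higher. Of 14 Toll-like receptor genes 8 were lower and 3 higher; Tlr9, the sensor of bacterial DNA, averaged 15 ± 2.97 and 118 ± 14.1 CPM, and Tlr2 averaged 856 ± 257 and 309.6 ± 59.3 CPM. Of 16 cytokine receptors 10 were lower and 5 higher. Csf3r, the G-CSF receptor, averaged 35.4 ± 9.97 and 351 ± 29.3 CPM, Csf1r, the receptor for the growth factor of both cells, 1181 ± 164 and 1972 ± 178 CPM, and Csf2rb, a chain of the GM-CSF receptor that alveolar macrophages need, 1045 ± 141 and 515 ± 106 CPM. Csf2rb shares sequence with Csf2rb2.

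Transcription factors changed in both directions, 10 higher and 17 lower of 29 tested. Bhlhe41, a factor of resident alveolar macrophages, was at 295, 206, 237, 348 and 278 CPM in macrophages and 0.106 to 1.23 CPM in monocytes (8.88 ± 0.30). Pparg, the nuclear receptor that alveolar macrophages require, was at 110.4 to 138 CPM and 2.99 to 13.4 CPM (3.79 ± 0.32), and Egr2 averaged 145 ± 32.1 and 6.49 ± 3.89 CPM. Klf2, which governs trafficking, was at 463 to 1094 CPM in monocytes and 20.6 to 55.6 CPM in macrophages (-4.30 ± 0.38), and Runx3 averaged 83.1 ± 19.1 and 6.68 ± 1.42 CPM in the same order. Cebpb, needed by nonclassical monocytes, did not pass the test (-0.30 ± 0.13, adjusted p = 0.0527) but was called lower with limma voom (0.0425), with library totals (0.00752), without macrophage library 3 (0.00417), without libraries 3 and 5 (0.008) and without monocyte library 1, 2 or 3 (0.0215 to 0.046).

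Genes of DNA replication and mitosis were higher in macrophages. Of 33, 31 were higher, 22 of them at least 4-fold, with a median log2 fold change of 3.17. Aurka and Aurkb were not called (0.92 ± 0.41 and 0.69 ± 0.32). Both were called higher with DESeq2 (adjusted p = 0.0418 and 0.0479) and without macrophage library 3, 4 or 5 (edgeR, 0.0206 to 0.0446). Limma voom called only Aurka (0.0142). Leaving out monocyte library 4 or 5 gave the call for Aurka, and leaving out library 3 gave it for Aurkb. Top2a, which untangles DNA in dividing cells, was at 98.1, 129, 41.4, 76.3 and 45.0 CPM in macrophages and at 0.187 to 4.67 CPM in monocytes (4.91 ± 0.47). Mki67, the proliferation antigen, was at 141, 226, 60.4, 135 and 95.3 CPM and at 22.6 to 43.5 CPM (2.10 ± 0.29). Library 2 was the highest and library 3 the lowest for both. Cdk1, the mitotic kinase, was at 9.07 to 35.9 CPM in macrophages and had only 2 counts in all monocyte libraries, a ratio of 452 with a 95% counting interval of 125 to 3739. In the promoters of 27 of these genes, the E2F letters TTTGGCGC or TTTCCCGC on either strand were present in 5 of 28 (17.9%), against 1.56% of all promoters; 6 members were not in the table. The cell cycle inhibitors Cdkn1b and Cdkn2d were lower in macrophages (-1.55 ± 0.11 and -2.97 ± 0.20), and Cdkn1a was not called (-0.22 ± 0.25, adjusted p = 0.457). Of 16 p53 and senescence genes, 8 were higher and 3 lower (5 lower with library totals), among the first Gdf15 (34.2 ± 20.5 and 0.663 ± 0.371 CPM).

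The integrated stress response, the pathway the series drug acts on, showed no single direction. Of 26 of its factors and ATF4 targets tested, 12 were higher and 9 lower. Phgdh, the first enzyme of serine synthesis, averaged 32.9 ± 11.3 and 1.28 ± 1.16 CPM, and the cystine carrier gene Slc7a11 averaged 83.6 ± 30.1 and 6.38 ± 2.58 CPM. Atf4 itself was a little lower (127 ± 11.8 and 171 ± 28.1 CPM, -0.43 ± 0.17, adjusted p = 0.0264), a call lost without macrophage library 1 or 2 or monocyte library 4 or 5, at adjusted p of 0.0566 to 0.0902. Ppp1r15a, which ends the response by restoring eIF2, was at 28.8 to 44.0 CPM in macrophages and 144 to 258 CPM in monocytes (-2.46 ± 0.23), and Ddit4 was lower by 4.78 ± 0.45. Chaperones of the endoplasmic reticulum were higher in 14 of 21 cases and lower in 4. Calr and Pdia4 were 2.56 and 3.04 times as high in macrophages, and the stress sensors Atf6 and Ern1 were lower (-1.43 ± 0.09 and -1.58 ± 0.18). Ribosomal protein genes were lower, 68 of 81 tested, all by less than 4-fold and with a median of -0.63. Rplp0 averaged 571 ± 51.7 and 1094 ± 121 CPM. Many ribosomal protein genes have processed copies that take reads.

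By fold change alone, the largest gains beyond Spp1 were Sh3bgrl2 (64.0 to 104 CPM in macrophages) and Prom1 (25.8 to 48.0 CPM), which had no monocyte count and were at least 1402-fold and 613-fold higher, and genes with 1 or 2 monocyte counts. Pdpn, podoplanin, was at 155, 172, 91.7, 197 and 103 CPM in macrophages with 1 monocyte count, a ratio of 6672 with an interval of 1197 to 263585. Cspg4, a proteoglycan known from pericytes, was at 153, 174, 67.3, 145 and 78.6 CPM with 2 counts (ratio 2877, 796 to 23759), and H2-M2, a nonclassical class I gene, at 40.0 to 225 CPM with 1 count (ratio 4779.8, 857 to 188836). These intervals cover counting error only. Slc7a2, a carrier of arginine, was at 714 to 881 CPM in macrophages and 0 to 1.78 CPM in monocytes (10.23 ± 0.36). The largest losses beside those above were Pi16, F5 and Padi4, at 166 ± 18.0, 97.2 ± 22.3 and 82.7 ± 9.40 CPM in monocytes and 0.504, 0.202 and 0.347 CPM in macrophages. By CPM, the largest gain was the lysozyme gene Lyz2 (48983 ± 7226 and 17568 ± 953 CPM) and the largest losses were Ahnak, Fos and Ccr2, Ahnak at 1244 ± 70.6 and 4262 ± 327 CPM (SD, n = 5 each).

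The 5 macrophage libraries differed among themselves. The median gene varied with an SD of 0.18 on the log2 CPM scale in macrophages and in monocytes, but a few genes varied much more. Krt79, a keratin of mature alveolar macrophages, was at 9.0, 10.1, 102, 14.4 and 61.6 CPM (SD 1.59), Krt19 at 42.6, 19.1, 199, 23.9 and 110 CPM (SD 1.44) and Cidec, a lipid droplet protein, at 14.7, 7.06, 80.0, 7.58 and 46.6 CPM (SD 1.55). Libraries 3 and 5 were the highest for all 3, as for Siglecf and Abcg1, and the lowest for Spp1, Irf7 and Ccr2. Arg1 (SD 1.63) was highest in library 2, which also led the cell cycle genes. Library 4 led for Mmp2 (SD 1.47), C3 and Hp, the last at 113, 223, 68.4, 619 and 89.8 CPM. The immunoglobulin genes Ighm and Igkc, both members of the B cell list, varied together, library 5 being highest at 286 and 105 CPM and library 4 lowest at 8.44 and 6.15 CPM. Monocytes varied most in Hspa1b, a heat shock gene, at 2.23, 6.45, 9.0, 75.2 and 18.1 CPM (SD 1.84), and in Tmcc3, Cd83 and Vegfa, where libraries 4 and 5 were high. With only macrophage libraries 1, 2 and 4 kept, a check chosen after seeing the data, 7171 genes were called in place of 7739 and 2283 in place of 2286 at 4-fold or more.

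**Figure D3:**
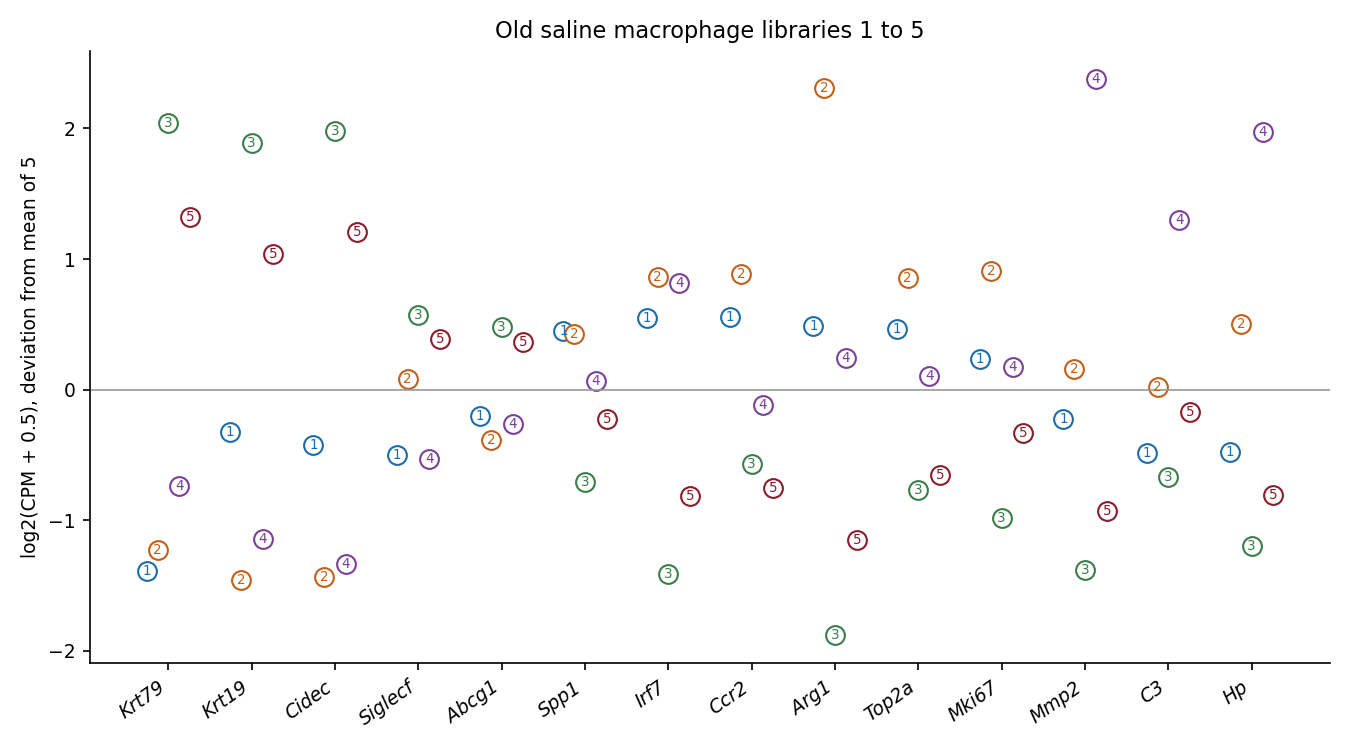
Deviation of each old saline macrophage library from the mean of the 5 (log2 CPM with 0.5 added) for 14 genes, 1 point per library, numbered. Libraries 3 and 5 lie above the mean for Krt79, Krt19, Cidec, Siglecf and Abcg1 and below it for Spp1, Irf7 and Ccr2.

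The same contrast in young saline mice, 5 macrophage and 5 monocyte libraries that share no library with the old ones, called 8146 of 13587 genes (60.0%), 4211 higher and 3935 lower. Both ages called 6569 genes in the same direction, 84.9% of the old calls and 80.6% of the young ones, and 14 in opposite directions. Across genes, which are not independent replicates, the log2 fold changes of the old and the young contrast had a Pearson r of 0.90. The difference between the contrasts was tested directly and called 34 genes (0.250%), 20 with a higher and 14 with a lower estimate in old mice, while 1484 had an unadjusted p under 0.05. A call at one age and not at the other, which 1156 old and 1563 young genes showed, is not by itself evidence of a difference between ages. Some of these genes, such as Olfm1, did have a called difference. For the rest, the lack of such a call does not show that the ages are equal.

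**Figure D4:**
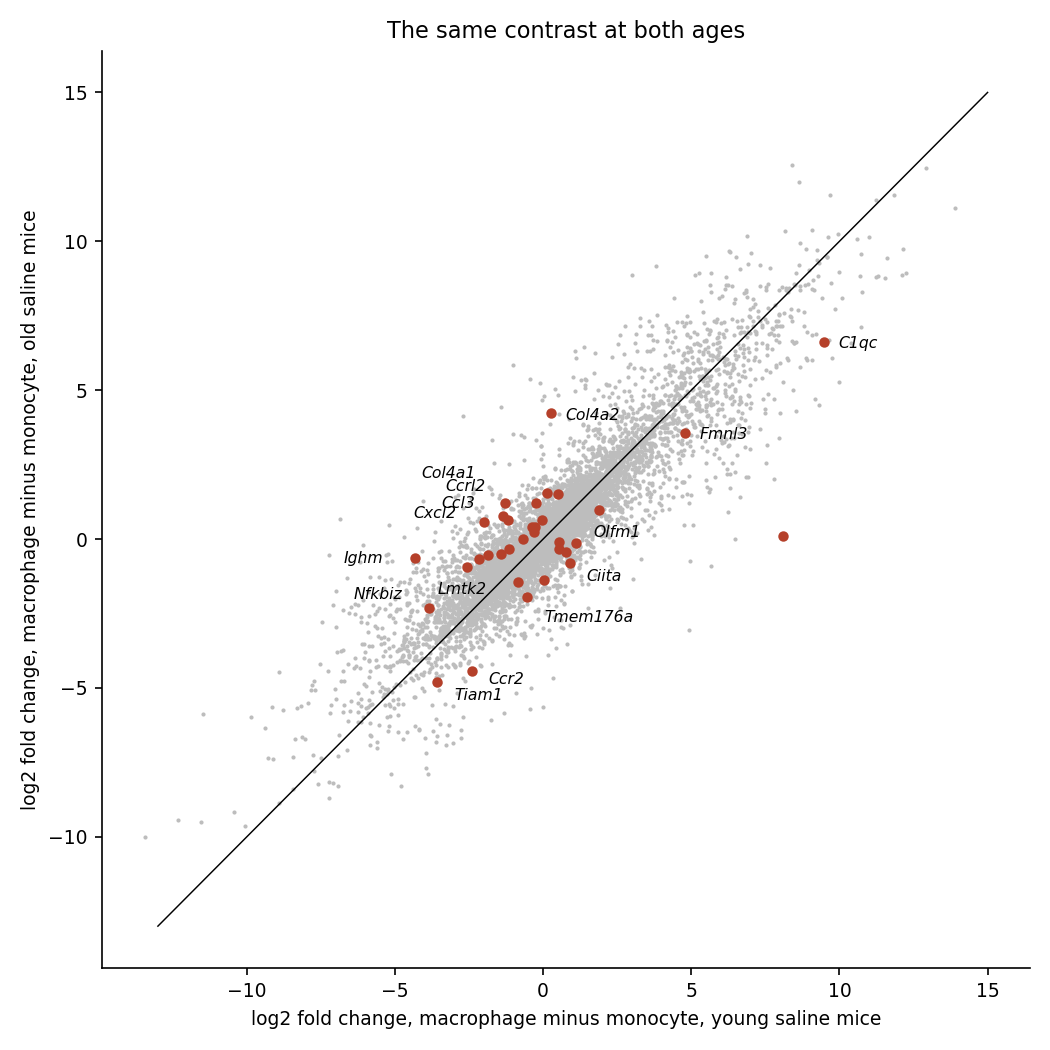
Log2 fold change, macrophage minus monocyte, in old saline mice (vertical) against young saline mice (horizontal) for the 13587 genes tested, with the 34 genes whose difference was called as larger points and 15 of them named. Most genes lie near the line of equality, with a Pearson r of 0.90.

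The 8 named genes with a higher estimate in old mice included chemokine and NF-kB genes. Ccl3, a neutrophil and monocyte attractant, was higher in old macrophages than in old monocytes (56.4 ± 24.3 and 33.1 ± 7.64 CPM, 0.77 ± 0.26) and lower at the young age (23.4 ± 3.78 and 59.3 ± 8.64 CPM, -1.34 ± 0.26), a difference of 2.11 ± 0.37 (SE; edgeR adjusted p = 0.0074). Cxcl2 gave 0.56 ± 0.36 and -1.98 ± 0.37 (adjusted p of the difference 0.0203), Ccrl2 0.64 ± 0.29 and -1.18 ± 0.29 (0.0368) and Nfkbiz -2.30 ± 0.25 and -3.86 ± 0.27 (0.0368). Of 16 inflammatory genes tested, 3 had a called difference, the third being Nfkbia. A basement membrane collagen gene gave the largest difference of the 15 named. Col4a2 was at 10.8, 9.42, 34.4, 9.73 and 29.1 CPM in old macrophages and averaged 1.01 ± 0.602 CPM in old monocytes, and it averaged 3.91 ± 0.779 and 3.25 ± 1.63 CPM in young ones (difference 3.95 ± 0.58, adjusted p = 4.58e-04). Its neighbour Col4a1, whose annotated span overlaps it, gave 1.20 ± 0.32 and -1.30 ± 0.33 (0.00972). Both were highest in macrophage libraries 3 and 5. Ighm gave -0.65 ± 0.44 and -4.33 ± 0.53 (0.00955), with averages in macrophages of 106 ± 106 CPM at the old and 9.80 ± 9.08 CPM at the young age; the part of B cell transcripts in it was not tested. Lmtk2, a kinase gene, completed the 8 with higher estimates (-0.93 ± 0.26 and -2.58 ± 0.28, 0.0426).

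Among the genes with a lower estimate in old mice, 7 are described. Ccr2 fell further between monocyte and macrophage in old mice (-4.44 ± 0.32) than in young ones (-2.40 ± 0.29; 1741 ± 729 CPM in young monocytes and 329 ± 79.7 CPM in young macrophages), with an adjusted p of 0.0152 for the difference. C1qc was gained by 6.62 ± 0.41 in old and 9.48 ± 0.50 in young mice (0.0357). Its macrophage means were 564 ± 155 and 716 ± 103 CPM, and its monocyte means were 5.63 ± 5.60 and 0.878 ± 1.35 CPM, so the larger ratio between ages lay in the monocytes. Ciita was lower in macrophages in old mice (-0.79 ± 0.26) and higher in young ones (0.90 ± 0.27; 0.0336), with monocyte means of 113 ± 36.1 and 41.2 ± 16.1 CPM. Tmem176a gave -1.94 ± 0.21 and -0.53 ± 0.20 (0.0209), Olfm1 -0.14 ± 0.18 and 1.12 ± 0.18 (0.0172), Fmnl3 3.57 ± 0.19 and 4.80 ± 0.21 (0.0289) and Tiam1 -4.79 ± 0.20 and -3.57 ± 0.19 (0.0209). These 34 calls depended on single libraries. Leaving out 1 of the 20 saline libraries at a time gave 8 to 71 calls. The count was 8 without old macrophage library 5 and 18 without library 3, 14 and 18 without young macrophage libraries 1 and 2, and 21 without young monocyte library 2. It was 62 without old macrophage library 2, 53 without old monocyte library 5, and 56 and 71 without young monocyte libraries 4 and 5. With only old macrophage libraries 1, 2 and 4 kept, Col4a2 was the 1 gene called. In that setting the contrast in old mice itself was no longer called for Ccl3 (0.29, adjusted p = 0.386; 0.52, 0.0816 without library 5 alone), Col4a1 (0.62, 0.127) and Ciita (-0.61, 0.0909).

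**Figure D5:**
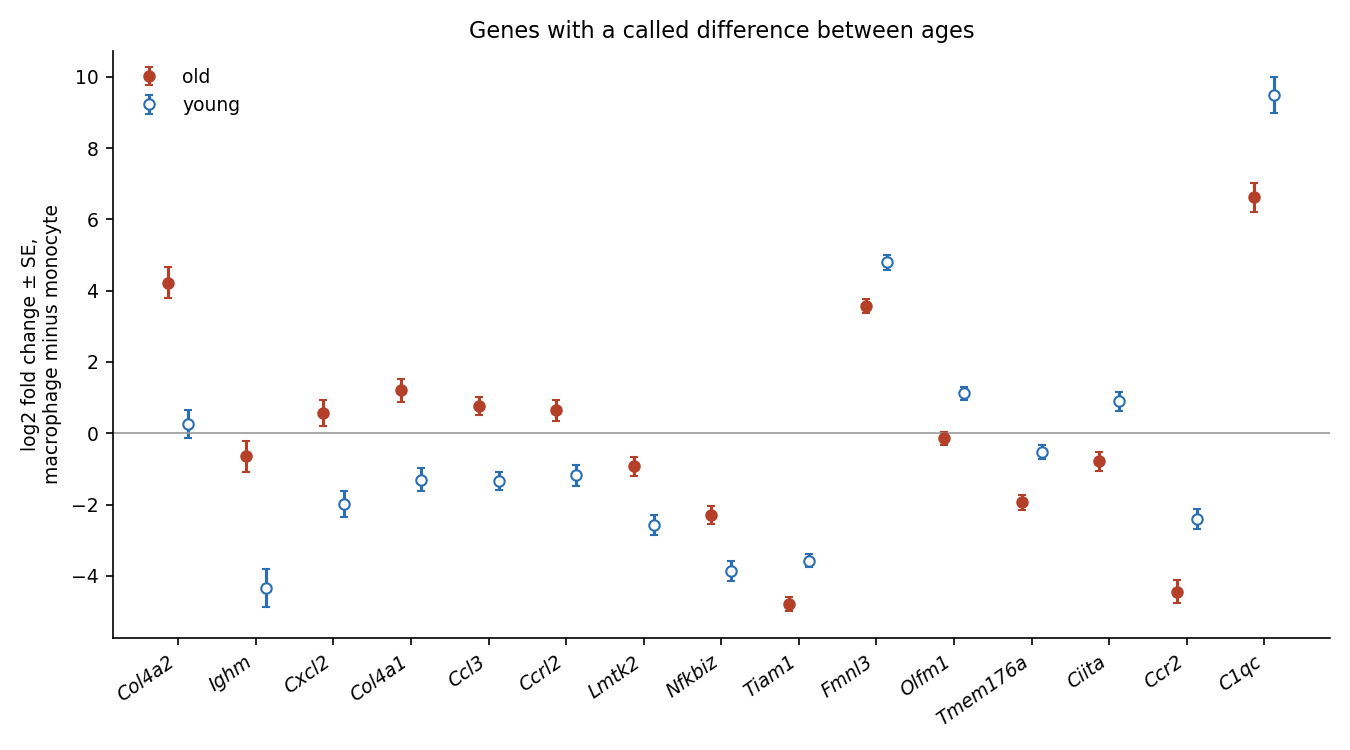
Log2 fold change, macrophage minus monocyte, with SE for the 15 genes named for a called difference between ages, in old (filled) and young (open) saline mice. The estimates for the 2 ages lie on opposite sides of 0 for Cxcl2, Col4a1, Ccl3, Ccrl2, Olfm1 and Ciita.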

How the data were processed

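RNA was sequenced from sorted cells after polyA selection, and 1 table of raw read counts for 39 libraries and 43430 gene IDs was deposited. Per the submitters' processing notes, the counts came from bcl2fastq 2.19.1, Trimmomatic 0.36, STAR 2.6.0 and HTSeq 0.11.2 on mm10. The sources used here do not name the strand setting or the annotation release, so antisense partners cannot be told apart. Symbols came from GENCODE vM21 and matched 42546 IDs (98%).

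The counts were fitted over all 39 libraries with 1 mean for each of 8 groups (edgeR 4.0.16, R 4.3.3: TMM, filterByExpr, quasi-likelihood test, Benjamini-Hochberg adjusted p over 13587 genes). The test of the old contrast was run on simulated counts in which far fewer genes changed than here. The difference between ages was not assessed on them. Libraries of a group differed by more than sampling noise in all 20 pairs (chi-square per degree of freedom 12.5 to 28.5). A group without counts was set to 3 counts, and the floors and intervals cover counting error only. Depth of at least 6996727 counts limits what can be said of genes near 0. Alternatives were other scaling factors, no filter, DESeq2 1.42.0, limma voom 3.58.1, fewer libraries, a replicate block and each library left out.

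The groups compared and all gene lists were chosen with earlier results of these data known. Named genes were the 12 per direction with the largest fold change (mean of at least 20 CPM, no overlap) and the largest CPM difference, per list up to 6 by level and 4 per direction by fold change (at least 5 CPM), 8 per direction for the difference between ages (at least 10 CPM), and 8 per cell type by SD. Promoter matches, marker genes of other cells, Trem2, Aurka, Aurkb, Nfkbia and the genes of the closing section were named outside this rule, after their values were seen. Some genes the rule named are not reported here.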

Additional observations from a re-analysis of the deposited data

Results flagged for a closer look

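In 494 groups of 5 libraries, 1 for each gene or summed list and cell type, the highest or lowest library was compared with the others by Dixon's ratio (critical value 0.71). In 35 of these groups a library stood apart. A chance rate of about 1 in 20 holds for normally distributed values in groups not chosen by their spread. Some genes here were named for their spread in these libraries, and some had counts in only 1 library. The 35 of 494 therefore cannot be set against that rate.

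Among macrophages, library 4 was the highest for Mmp2 (228 CPM, median 37.1), C3 (1173, median 424), Hp (619, median 113) and the summed cytokine receptors (6626, median 6071). Library 2 was the highest for Arg1 (277 CPM, median 65.7), Il1b (319.6, median 126) and Aurkb (32.7, median 10.7). Library 1 was the highest for Plau (144 CPM, median 73.7) and the lowest for Gsr (219, median 283), library 3 the highest for Cebpb (926, median 626) and the lowest for Scgb1a1 (3.21, median 5.78), and library 5 for Ptgs2 (24.7, median 9.11) and Igkc (105, median 31.3).

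Among monocytes, library 3 was the highest for Psap (11780.1 CPM, median 9539), Chil3 (1231, median 597), Igf1 (8.34, median 0.823), the summed alveolar macrophage genes (1453, median 801) and the summed respiratory chain genes (6014, median 5107), and the lowest for Nr1h2 (90.1, median 108). Chil3 accounted for 1231 of the 1453 CPM of the alveolar macrophage genes in library 3, and it is in the classical monocyte list too. Whether macrophages in that sort contributed was not tested. Library 4 was the highest for Hspa1b (75.2 CPM, median 9.0), Cxcl2 (226, median 86.5) and Krt79 (0.426, median 0). Library 2 was the highest for the summed chemoattractant receptors (5149 CPM, median 3666), Sftpb (0.467) and H2-M2 (0.0935) and the lowest for H2-Eb1 (212, median 420.4) and Itga4 (1098, median 1377). Library 1 was the highest for Cdh5 (6.80 CPM, median 1.02), Nr1h3 (15.9, median 7.41), Pdpn (0.106), Cspg4 (0.212) and Col3a1 (0.319), and library 5 was the highest for Epcam (1.65, median 0.111) and Pdgfc (0.686) and the lowest for Il1rn (11.2, median 24.3). The values under 1 CPM rest on a few counts.

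The contrast differed between ages by edgeR's test of the difference, given here as old minus young log2 fold change. It was positive for Col4a2 (3.95), Ighm (3.68), Cxcl2 (2.54), Col4a1 (2.50), Ccl3 (2.11), Ccrl2 (1.82), Lmtk2 (1.65), Nfkbiz (1.56), Il15 (1.48), Gstm1 (1.44), Nfkbia (1.31, adjusted p = 0.0149), Abcc5 (1.02), Hspa8 (0.82) and Hsp90ab1 (0.77). It was negative for C1qc (-2.85), Ccr2 (-2.04), Ciita (-1.69), Tmem176a (-1.42), Olfm1 (-1.26), Fmnl3 (-1.23), Tiam1 (-1.22) and H2-DMb1 (-0.93).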

How the results depend on the processing

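The counts of genes called (7739) and called at 4-fold or more (2286) stayed within 1.5 times under every alternative run, at 6934 to 8091 and 1675 to 2708. The difference between ages did not: its 34 calls became 76 with no filter, 141 with DESeq2 (34 of them shared), 22 with limma voom (20 shared), 19 with only the 20 saline libraries and 1 with only old macrophage libraries 1, 2 and 4. Leaving out 1 saline library gave 8 to 71. The cause was not tested. Of the log2 fold changes named, those that changed sign were not called with all libraries. Fcgr1 (-0.02) was 0.00 with limma voom, 0.16 with old macrophage libraries 1, 2 and 4 and -0.15 to 0.11 with 1 library left out. Cd14 (-0.17) was at -0.30 to 0.10 with 1 library left out, and Olfm1 (-0.14) at 0.06 with libraries 1, 2 and 4. The remaining alternatives kept direction and call for most genes named in the text, with 11 genes gaining and 12 losing a call in at least 1 setting.

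Same-numbered macrophage and monocyte libraries did not deviate together (correlations of 0.02, 0.03, -0.04, -0.02 and 0.08; 2 of 5 correlated best with their own number), so the replicate numbers were not taken as pairs. With a replicate block 6934 genes were called, 1733 at 4-fold or more, and 9 for the difference between ages (7 of them among the 34), Fcgr1 was at 0.02 and Nr1h2 was not called (-0.31, adjusted p = 0.0585).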

Other observations

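Some genes with a called difference between ages lay below the size at which genes were named above and were picked after their values were seen. Constitutive chaperones were among them. Hspa8, the cytosolic heat shock cognate, was at 792 ± 129.7 CPM in old macrophages and 988 ± 228 CPM in old monocytes, and at 612 ± 99.5 and 1351 ± 123 CPM in young ones, so its log2 fold change was -0.32 ± 0.13 in old and -1.14 ± 0.13 in young mice (edgeR adjusted p of the difference 0.0357). The old estimate was not called when any of macrophage libraries 1, 2 and 4 or monocyte libraries 3 and 4 was left out (adjusted p of 0.0547 to 0.23). Hsp90ab1, a cytosolic HSP90, was higher in macrophages in old mice (0.39 ± 0.13) and lower in young ones (-0.38 ± 0.13; 0.049), and the old estimate was not called without macrophage libraries 3 and 5 (0.20, adjusted p = 0.232) or with library totals (0.26, 0.0778). Abcc5, an export pump for cyclic nucleotides, gave 1.51 ± 0.13 and 0.50 ± 0.13 (0.0074), with 341 to 533 CPM in old macrophages and 131 to 181 CPM in old monocytes. Gstm1, a glutathione transferase, averaged 142 ± 54.2 and 61.8 ± 6.65 CPM in old mice and 76.4 ± 12.2 and 89.9 ± 23.5 CPM in young ones (SD, n = 5 each), and old macrophage libraries 3 and 5 were its highest, at 197 and 200.2 CPM. Il15, a cytokine for lymphocytes, fell less between monocyte and macrophage in old mice (-0.68 ± 0.22) than in young ones (-2.16 ± 0.23; 0.0234), and H2-DMb1, a peptide-loading chain of MHC class II, rose less (0.97 ± 0.15 and 1.90 ± 0.15; 0.0368). Without old macrophage libraries 3 and 5, none of these differences was called. Fgf13, also called, is the unnamed larger point farthest from the line of equality in the plot of both ages. It averaged 1.14 and 1.07 CPM in old macrophages and monocytes and 3.96 CPM in young macrophages, and it is listed at 0 in all young monocyte libraries, so no fold is given.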
